A study of Mus musculus with 5 samples.

Results

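The genes described here were named on a ZHX1 peak and on an hnRNPA1 peak in control cells, and on no hnRNPA1 peak after loss of Zhx1. They were found by the gene name that the deposited peak lists give to each peak: a name had to stand in both control lists and nowhere in the knockout list, and peaks without a name were left out. There were 529 such names among the 5526 names that both control lists held, which is 9.57% (Wilson 95% interval 8.83 to 10.4%), and 18498 names occurred in any of the 3 lists. Absence from the Zhx1-KO list was more frequent among names of 1 control list alone: it held for 30.3% of the names in the ZHX1 list only and 32.4% of those in the control hnRNPA1 list only, and for 19.8 and 17.6% of all names in these lists. The 529 names held 715 of the 23244 ZHX1 peaks and 653 of the 14662 hnRNPA1 peaks of the control cells.

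The lists came from chromatin immunoprecipitation followed by sequencing (ChIP-seq) at the CP stage, when mouse embryonic stem cells of the 46C line had been differentiated towards cardiac progenitors. Zhx1-KO cells were made from 46C by electroporation with a pair of guide RNAs at the transcription start and stop sites of Zhx1, and lines were picked by PCR, while 46C-Ctrl cells kept the gene. An antibody against hnRNPA1 was used in Zhx1-KO and in 46C-Ctrl cells, and an antibody against ZHX1 in 46C-Ctrl cells, after formaldehyde fixation and sonication. Each of the 3 lists came from 1 library, with 51545 hnRNPA1 peaks in Zhx1-KO, 14662 hnRNPA1 peaks in 46C-Ctrl and 23244 ZHX1 peaks in 46C-Ctrl, so that no difference between conditions could be tested and every interval below covers counting error only.

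ZHX1 belongs to a family of nuclear proteins that carry zinc fingers and homeodomains, both of which can contact DNA. The protein hnRNPA1 is an abundant nuclear protein that binds RNA, with roles in alternative splicing and RNA export, and it recognises UAGGG-like sites. A ChIP peak of an RNA-binding protein can come from DNA, from nascent RNA or from other proteins at the site, which the lists do not separate.

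Absence of a name from the Zhx1-KO list was the choice itself and is not a result. It is a statement about names: a peak takes the name of the gene whose start is nearest, as 1321 of the 1368 member peaks (96.6%) did with the curated RefSeq starts of GRCm38 (mm10), so a knockout peak beside a member can bear a neighbour's name. Just outside the choice stood 820 names with exactly 1 Zhx1-KO peak. The members had a median naming territory, the stretch of chromosome nearer to that gene's start than to any other, of 43.7 kb, the 820 names one of 61.7 kb and all 4997 other names of both control lists one of 157 kb.

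At 39 members the ZHX1 peak and the hnRNPA1 peak shared bases, and these shared stretches are the places where both proteins were called on the same DNA. The sequences of 8 are given because they cover the kinds of place found: Zfp810, a zinc finger gene, Tmem185b, a membrane protein gene, and Ctxn2, which encodes a small membrane protein, had both peaks within 2 kb of the start. Mob2 (a binding partner of NDR kinases), Unk (an RNA-binding zinc finger protein) and Dcaf11 (a substrate receptor of a CUL4 ubiquitin ligase) had them in introns. Foxs1, a forkhead transcription factor gene, had them between genes, and Mesp2, a transcription factor gene of early mesoderm, had them in the repeated sequence described below. Each is the plus strand of GRCm38 in lower case, and capitals mark TAGGG, the DNA form of the hnRNPA1 core site, or CCAAT, the site of NF-Y, in either orientation (CCCTA and ATTGG on the other strand).
Zfp810, chr9:22306279-22306454: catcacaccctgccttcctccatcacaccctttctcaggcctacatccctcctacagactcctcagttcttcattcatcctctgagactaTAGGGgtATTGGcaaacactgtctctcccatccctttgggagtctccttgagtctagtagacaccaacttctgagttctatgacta
Tmem185b, chr1:119526557-119526718: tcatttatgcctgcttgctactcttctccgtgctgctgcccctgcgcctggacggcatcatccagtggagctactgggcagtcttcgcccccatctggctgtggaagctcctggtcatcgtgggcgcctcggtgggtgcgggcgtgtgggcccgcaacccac
Ctxn2, chr2:125136607-125136657: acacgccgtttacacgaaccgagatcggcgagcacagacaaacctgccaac
Mob2, chr7:142055332-142055597: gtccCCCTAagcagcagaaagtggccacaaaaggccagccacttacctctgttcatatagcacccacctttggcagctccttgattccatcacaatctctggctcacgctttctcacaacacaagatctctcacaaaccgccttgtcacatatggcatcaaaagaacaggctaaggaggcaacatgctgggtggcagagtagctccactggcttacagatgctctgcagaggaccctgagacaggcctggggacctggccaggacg
Unk, chr11:116050364-116050578: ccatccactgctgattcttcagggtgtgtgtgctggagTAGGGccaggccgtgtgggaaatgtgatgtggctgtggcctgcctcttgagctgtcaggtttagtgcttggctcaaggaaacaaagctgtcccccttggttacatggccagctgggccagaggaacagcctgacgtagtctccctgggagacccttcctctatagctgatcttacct
Dcaf11, chr14:55566155-55566280: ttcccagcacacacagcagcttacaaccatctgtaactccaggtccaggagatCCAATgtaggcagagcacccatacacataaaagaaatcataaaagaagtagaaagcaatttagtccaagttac
Foxs1, chr2:152935790-152935844: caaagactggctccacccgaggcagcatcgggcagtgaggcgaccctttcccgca
Mesp2, chr7:79829299-79829467: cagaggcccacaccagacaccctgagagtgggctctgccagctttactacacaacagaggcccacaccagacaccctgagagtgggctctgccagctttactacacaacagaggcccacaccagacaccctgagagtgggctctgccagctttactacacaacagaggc

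The shared stretches were mostly in unique sequence. Their length ran between 37 bp at Accs and 474 bp at 4930572O03Rik, with a median of 176 bp, and 14 reached 200 bp. In 27 of the 39 (69.2%, 53.6 to 81.4%) both peaks occurred fewer than 2 times in the genome, judged by the median count of their 32-base words, against 165 of 436 overlapping pairs (37.8%, 33.4 to 42.5%) among the other names of both control lists. Among the names with exactly 1 Zhx1-KO peak it was 28 of 54 (51.9%, 38.9 to 64.6%), an interval that overlaps that of the members. The choice left out most names with a Zhx1-KO peak over a control peak, and the part this played in these shares was not tested. These 27 lay in introns in 16 cases, between genes in 10 and in coding sequence in 1, which was Tmem185b.

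The intervals of the TAGGG shares of members included those of the whole lists, and the CCAAT shares of members were lower. TAGGG was in 8 of the 39 shared stretches and CCAAT in 9, with 5 and 4 of the 27 in unique sequence. In the central 200 bases of the peaks, TAGGG in either orientation was in 192 of 653 member hnRNPA1 peaks (29.4%, 26 to 33%) against 27.1% of the whole control hnRNPA1 list, and in 192 of 715 member ZHX1 peaks (26.9%, 23.7 to 30.2%) against 25.7% of the whole ZHX1 list. CCAAT was in 22.4% of the member hnRNPA1 peaks (19.3 to 25.7%) and 22.9% of the member ZHX1 peaks (20 to 26.2%), against 27.2 and 27.4% of the whole lists. In RefSeq promoter windows, 250 bases before to 50 after a start, TAGGG was in 40.3% of 484 windows of members and 36.3% of all 32851 windows, and CCAAT in 36.2 and 37.4%.

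The longest shared stretches in unique sequence began with 6430706D22Rik, which RefSeq lists under the gene for the Holliday junction recognition protein. There an hnRNPA1 peak of 297 bp lay wholly inside a ZHX1 peak of 469 bp in an intron. Nudt14, a nucleotide sugar hydrolase gene, shared 288 bp, and each of its 2 peaks was 363 bp wide. Mob2 shared 266 bp, the whole of its ZHX1 peak. Ctdsp1, which encodes a phosphatase of the RNA polymerase II tail, shared 257 bp. At Blcap the 223 bp hnRNPA1 peak, which has the smallest width found in that list, began at the same base as the 281 bp ZHX1 peak.

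Shorter shared stretches stood at genes of several functions. Unk shared 215 bp, Slc44a4 (a choline transporter-like protein) 205 bp, Cgrrf1 198 bp, Mcrs1 (a subunit of chromatin complexes) 183 bp, Tom1l2 178 bp and Fis1, a mitochondrial fission gene, 171 bp. Tha1 shared 164 bp, Clcn3 (a chloride and proton exchanger) 155 bp and Phyh (a peroxisomal enzyme of fatty acid breakdown) 127 bp. Patz1, a zinc finger transcription factor gene, shared 75 bp, Gpr39 68 bp and Foxs1 55 bp. The pair of Slc44a4 lay inside the neighbouring gene Ehmt2, so the name on a pair is not always that of the gene that holds it.

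In the other 12 shared stretches at least 1 of the peaks lay in sequence that occurs 2 or more times. Akap13 shared 265 bp at a median of 416 copies, 4930572O03Rik 474 bp at 7 copies and Fam107a 237 bp at 2 copies. The Surf6 pair combined a ZHX1 peak with 14 copies and a unique hnRNPA1 peak. Reads without a unique position had been removed before the peaks were called, and the part this played at such sites was not tested.

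Mesp2 was the member with both proteins and the knockout signal on one spot. Its ZHX1 peak (chr7:79829299-79829565) and hnRNPA1 peak (chr7:79829245-79829467) shared 169 bp made of an exact 54-base tandem repeat, with a median of 14 copies, in an intron of Anpep about 18.7 kb downstream of the start of Mesp2. An hnRNPA1 peak of Zhx1-KO cells (chr7:79829284-79829783), named Anpep, covered the shared stretch. Mesp2 therefore met the choice through the name on that peak, and hnRNPA1 was called there in Zhx1-KO as well as in 46C-Ctrl cells.

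One other member had a Zhx1-KO peak over a control peak. This was Gm23284, a ribosomal RNA gene, whose hnRNPA1 peak on chromosome 8 (50 copies) was overlapped by a knockout peak named Gm22291. Within 1 kb of a control peak there were 4 members with a Zhx1-KO peak, the other two being Mir804 and Upk3a, at 0.263 and 0.86 kb. Within 10 kb there were 74 (14%), and within 100 kb 512 (96.8%). The median distance to the nearest Zhx1-KO peak was 24321 bp. At 87 of 528 members with a RefSeq gene (16.5%) a Zhx1-KO peak lay inside the gene itself under another name, among them Dnmt1, Kdm4a, Plxnb2, Unk and Cacna1i. Dusp21, Aard and Orc4 were farthest from any, at 254, 238 and 188 kb. All these distances follow from the choice of names and are given as a description.

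Peaks of a member were few. Of the 529 members, 386 (73%) had 1 ZHX1 peak, 427 (80.7%) had 1 hnRNPA1 peak and 321 (60.7%) had 1 of each. The mean was 1.35 ZHX1 and 1.23 hnRNPA1 peaks, against 2.89 and 2.04 at the other names of both control lists. The names with exactly 1 Zhx1-KO peak were nearer to the members, with means of 1.54 and 1.28. Within the shortest quartile of naming territories the means were 1.26 and 1.17 at members and 1.63 and 1.41 at other names. Few peaks were therefore not particular to the members. The most peaks stood at Blcap, with 2 ZHX1 and 5 hnRNPA1 peaks, and at Ndrg1, a stress-responsive gene, with 6 and 1. Aard had 3 and 3, Abcc4, an ABC transporter gene, 5 and 1, and Gm14092 2 and 4.

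Over all territory lengths, the ZHX1 and hnRNPA1 peaks of a member lay nearer together than those of other names. Within the shorter territory quartiles, given below, the intervals overlapped. The gap between the nearest edges of a member's peaks, with an overlap taken as 0, had a median of 7535 bp (95% interval 6314 to 8405 bp). Its quartiles were 2007 and 17093 bp. At the other names of both control lists the median was 12170 bp (11455 to 12964 bp). Among names with 1 peak in each list the medians were 9196 bp (7698 to 10805 bp) for the 321 members and 19708 bp (17949 to 21725 bp) for the 1248 others. Of the members, 98 (18.5%) had a gap under 1 kb, 318 (60.1%) under 10 kb and 525 (99.2%) under 100 kb, against 15.7, 45.5 and 93.9% of the other names.

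**Figure D1:**
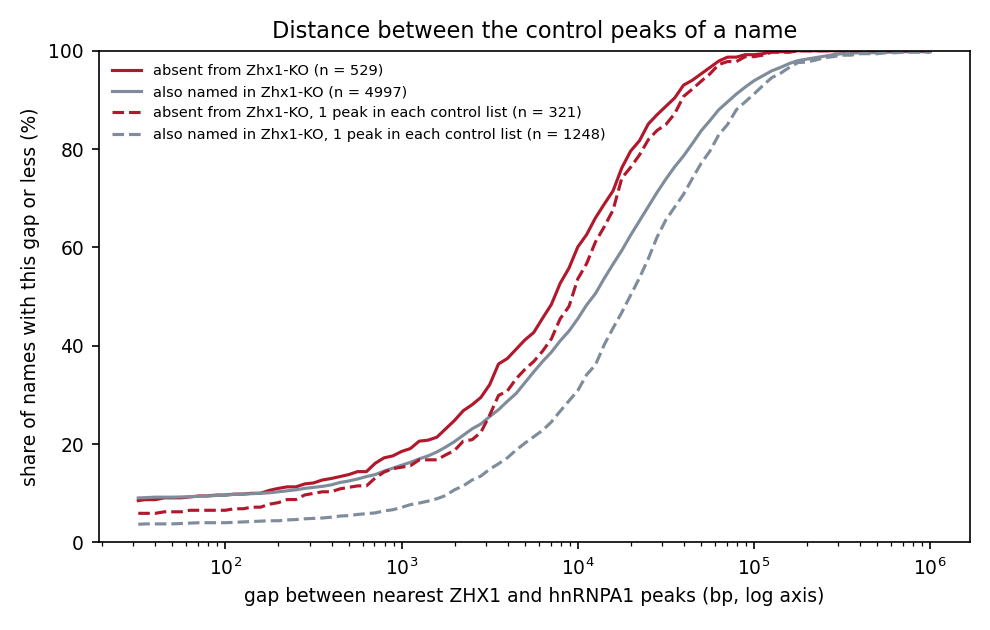
Share of names (%, vertical axis) whose nearest ZHX1 and hnRNPA1 peaks of 46C-Ctrl cells lay within a given gap (bp, log axis), for names absent from Zhx1-KO (red) and names also present there (grey), with solid lines for all names and dashed lines for names with 1 peak in each control list. Overlapping pairs enter below the left end of the axis, and the red solid line reaches 60.1% at 10 kb where the grey solid line reaches 45.5%. The lines take all lengths of naming territory together.

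The shares of names with an overlap had intervals that overlapped between members and other names. The 39 members were 7.37% of 529 (5.44 to 9.92%), against 436 of 4997 other names (8.73%, 7.97 to 9.54%) and 8.6% of all 5526. Among names with 1 peak in each list it was 17 of 321 members (5.3%, 3.33 to 8.32%) and 44 of 1248 others (3.53%, 2.64 to 4.7%). Overlaps with both peaks in unique sequence stood at 5.1% of members (3.53 to 7.32%) and 3.3% of other names (2.84 to 3.83%). In the shortest territory quartile they stood at 6.27% (4.25 to 9.15%) and 4.33% (3.23 to 5.79%). The order was opposite in the next, at 0.935% (0.165 to 5.1%) and 4.18% (3.21 to 5.43%), and the intervals overlapped in both quartiles.

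Some pairs nearly touched without sharing a base. At Kcna7, a voltage-gated potassium channel gene, 3 bp lay between the hnRNPA1 peak (chr7:45405534-45405756) and the ZHX1 peak (chr7:45405760-45406609), which covered the start of the gene and was the widest ZHX1 peak of any member at 850 bp. Azin2, a regulator of polyamine synthesis, had a gap of 6 bp and Etnk2, an ethanolamine kinase gene, one of 8 bp. Gm5862, B4galnt4, Ccdc32, Dexi, Gm15972 and Fam104a followed at 29, 32, 34, 41, 44 and 58 bp. Magea4 had adjoining peaks with no base between them, in sequence with 3693 and 2796 copies.

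At the far end, 4 members had a gap of 100 kb or more. They were Parp8 (112 kb), Tnc, which encodes the matrix protein tenascin C (118 kb), Dusp21 (126 kb) and Sp5, a transcription factor gene induced by Wnt signals (164 kb). Each of these 4 had 1 peak in each list.

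Gap and choice both followed the length of the naming territory. In the shortest quartile of territories (0.561 to 65.7 kb) 383 of 1375 names were members (27.9%, 25.5 to 30.3%), in the next quartile 107 (7.78%), in the third 36 (2.62%) and in the longest 2 (0.145%). A peak is mostly named by its nearest start, so territory length is tied to the choice and this order is a description. Within the shortest quartile members still had shorter territories, with a median of 31.77 kb against 44.25 kb at the 992 other names. The median gap there was 6160 bp (4522 to 7365 bp) at members and 6976 bp (6058 to 7784 bp) at other names. In the next quartile it was 12121 bp (7656 to 18377 bp) and 12192 bp (11062 to 13959 bp). In the third the medians stood in the opposite order, with overlapping intervals, at 25295 bp (16048 to 45966 bp) for members and 15333 bp (13698 to 17203 bp) for other names. Overlap in the shortest quartile was at 7.83% of members (5.54 to 11%) and 10.2% of other names.

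**Figure D2:**
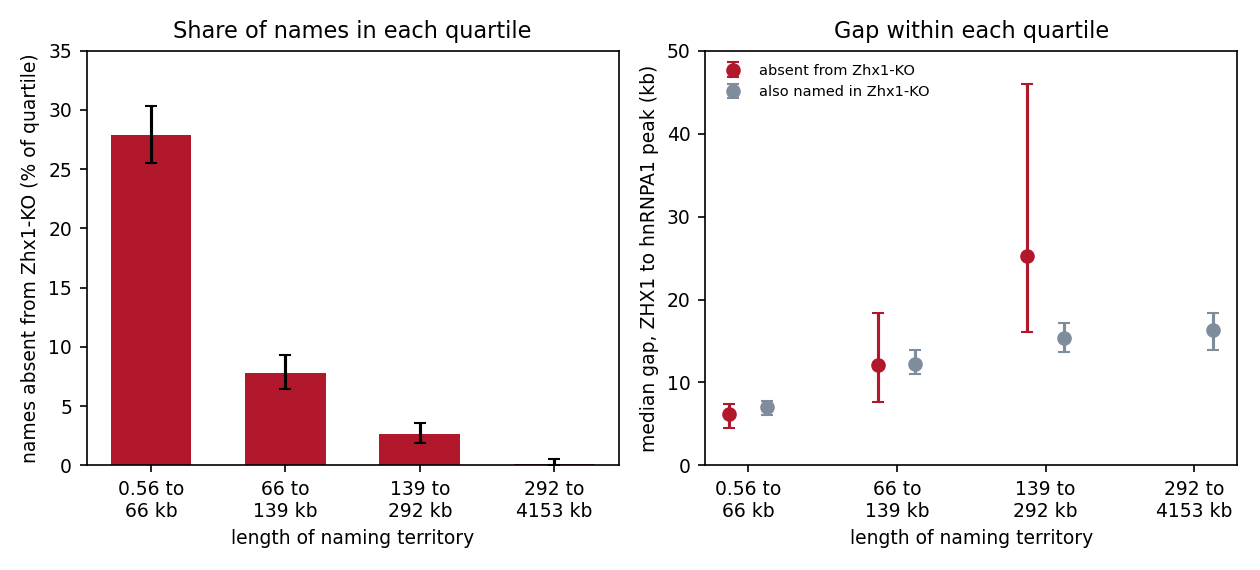
Left, share of names absent from Zhx1-KO (% of the names of both control lists, bars from 0 with Wilson 95% intervals) by quartile of naming territory length. Right, median gap between ZHX1 and hnRNPA1 peaks (kb, with 95% intervals) in each quartile for names absent from Zhx1-KO (red, not drawn in the last quartile, which held 2) and names also present there (grey); the intervals overlap in the first 3 quartiles.

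Taken over all territory lengths, members had peaks near their starts more often than the other names. Within the shortest quartile their shares were also higher, with overlapping intervals, and within the next they were not. A ZHX1 peak lay within 2 kb of a start at 106 of 528 members (20.1%, 16.9 to 23.7%) against 10.7% of 4972 other names, and an hnRNPA1 peak at 76 (14.4%, 11.7 to 17.6%) against 6.84%. Either was there at 155 members (29.4%, 25.6 to 33.4%) against 16.1%, and both at 27 (5.11%, 3.54 to 7.34%) against 75 other names (1.51%, 1.21 to 1.89%). Within the shortest quartile of territories either was at 34.2% of members (29.6 to 39.1%) and 27.1% of other names (24.4 to 30%). Both were there at 26 members (6.79%, 4.67 to 9.76%) and 34 other names (3.43%, 2.46 to 4.75%). Territories within this quartile were still shorter at members, as given above, so the quartile does not match the sets in length. In the next quartile either was at 15% of members (9.42 to 22.9%) and 16.5% of other names (14.5 to 18.6%), and both at 1 of 107 members and 15 of 1268 other names. In the third, either was at 22.2% of members (11.7 to 38.1%) and 14% of other names, and both at 0 of 36 members and 1.27% of other names.

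The members with both proteins at the promoter were of mixed function. Besides Zfp810, Tmem185b, Ctxn2, Kcna7 and Etnk2 they included Cpne7, a copine gene, with 66 bp between its peaks, Txndc12, a thioredoxin-domain gene of the endoplasmic reticulum, with 183 bp, and Vwce with 214 bp. Ssrp1, which encodes a subunit of the FACT histone chaperone, had 705 bp, Nrarp, a feedback inhibitor of Notch signalling, 944 bp, and Sf3a3, a splicing factor subunit, 1014 bp. Mul1, a mitochondrial ubiquitin ligase gene, had 1482 bp between its nearest peaks and one of the widest ZHX1 peaks at 728 bp. Dcaf11 (696 bp), Usp36 (666 bp) and Mir3074-1 (652 bp) followed in width. Gm5622 (740 bp), Ifi202b (683 bp), Prdm14 (583 bp), Lhx6 (565 bp) and Sowahc (561 bp) had the widest hnRNPA1 peaks.

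Most member pairs stood on one side of the gene or inside it, 354 of 528 (67%). No such share is given for the other names, so this describes the members only. The nearest ZHX1 and hnRNPA1 peaks were both inside the gene at 149 of 528 members (28.2%), both upstream at 136 (25.8%) and both downstream at 69 (13.1%). The mixed arrangement found most often was a ZHX1 peak inside and an hnRNPA1 peak upstream, at 69 members (13.1%), while the opposite arrangement was at 35 (6.63%). Of all member ZHX1 peaks, 309 (43.2%) lay in the gene they were named for, 126 (17.6%) in another gene and 280 (39.2%) in none. The hnRNPA1 peaks were divided in the same order as 244 (37.4%), 109 (16.7%) and 300 (45.9%).

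Over all territory lengths, member peaks lay in genes and in unique sequence more often than peaks of the other names. The difference in place was not the same in each territory quartile. Introns held 49.7% of the ZHX1 and 46.9% of the hnRNPA1 peaks of members, against 33.9 and 36% of those of other names. Coding sequence held 6.29 and 3.98%, against 1.79 and 1.68%. Within the shortest quartile of territories the ZHX1 peaks lay between genes in 36.8% (32.6 to 41.2%) at members and 50.2% (47.7 to 52.6%) at other names, while the hnRNPA1 peaks did so in 45.4% (40.9 to 50%) and 49.7% (47.1 to 52.3%). Coding sequence there held 8.68% (6.48 to 11.5%) of the ZHX1 peaks of members and 5.08% (4.11 to 6.26%) of those of other names, and 5.59% (3.82 to 8.13%) and 4.73% (3.74 to 5.97%) of the hnRNPA1 peaks. In the next quartile coding sequence held 2 of 156 ZHX1 peaks of members (1.28%, 0.352 to 4.55%) and 0 of 147 hnRNPA1 peaks (0 to 2.55%). At other names it held 2.88% (2.3 to 3.6%) and 2.58% (1.98 to 3.37%), with overlapping intervals. Between genes lay 45.5% (37.9 to 53.3%) of the member ZHX1 peaks there, against 52.8% (50.8 to 54.7%) at other names. For hnRNPA1 peaks it was 51.7% against 51.8%. In the third quartile the intervals were apart. Of 70 member ZHX1 peaks 38.6% (28 to 50.3%) lay between genes, against 58% (56.5 to 59.6%) at other names. Of 54 member hnRNPA1 peaks 33.3% (22.2 to 46.6%) did so, against 56.7% (54.9 to 58.6%). Sequence that occurs 2 or more times held 102 of the 715 ZHX1 peaks (14.3%, 11.9 to 17%) and 83 of the 653 hnRNPA1 peaks (12.7%), against 29.9 and 28.2%. Within the shortest quartile of territories it held 12.2% (9.57 to 15.4%) and 11.4% (8.79 to 14.7%) of the member peaks, against 28.5% (26.4 to 30.8%) and 24.5% (22.3 to 26.8%) of those of the other names. In the next quartile these shares were 19.2% (13.8 to 26.1%) and 12.9% (8.43 to 19.3%) at members, against 25.6% (23.9 to 27.3%) and 23.7% (21.9 to 25.6%). The choice left out most names with a Zhx1-KO peak over a control peak, found at 0.378% of members and 16.6% of other names. The part this played in the multi-copy shares was not tested. Median GC content was 48.4 and 48.9% at members against 45.6 and 46.2% at other names, and the width of the peaks differed little, with a median of 256 bp in both lists of members against 259 and 258 bp.

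**Figure D3:**
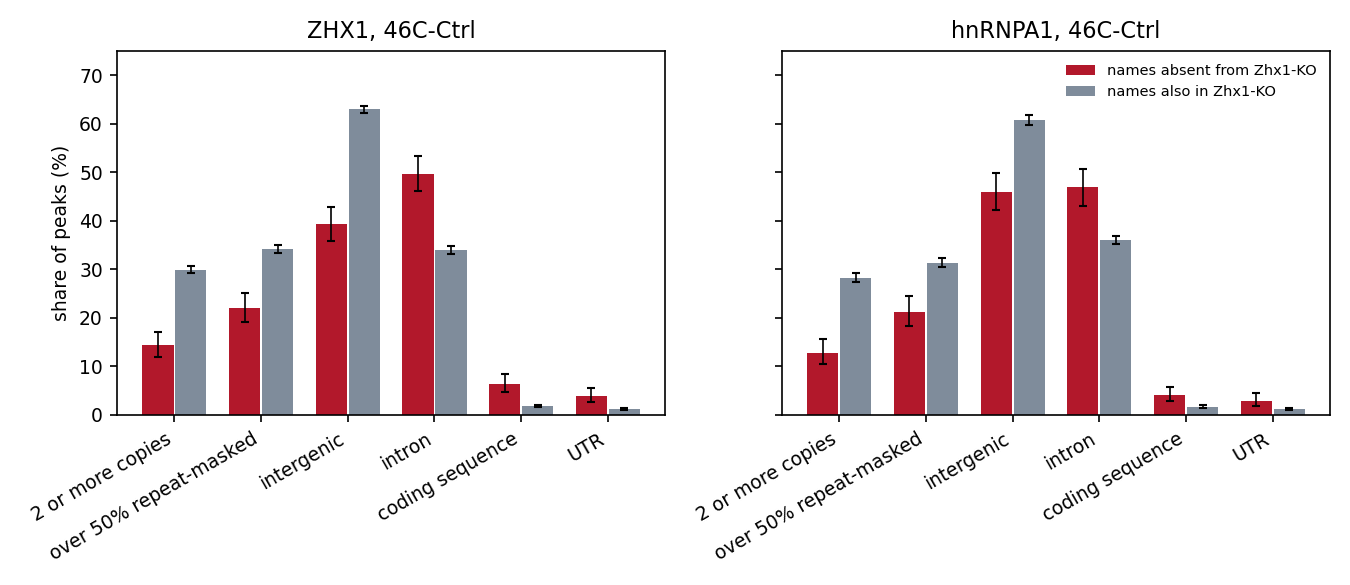
Share of peaks (%, bars from 0, Wilson 95% intervals) in sequence of 2 or more copies, in mostly repeat-masked sequence and in each kind of annotated place, for ZHX1 (left) and hnRNPA1 (right) in 46C-Ctrl cells. Peaks of names absent from Zhx1-KO (red) were less often multi-copy, 14.3 and 12.7%, than peaks of names also in Zhx1-KO (grey), 29.9 and 28.2%.

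Genes of heart development, signalling and pluripotency were looked up in 15 lists holding 586 genes, of which 204 were named in both control lists. Of these, 14 were members (6.86%, 4.13 to 11.2%), beside 9.57% of all names, and the 204 had a median territory of 183 kb. The Wnt list had 0 members of 24 and the neural transcription factors 0 of 22. The hnRNP and splicing factors had 0 of 14 and the Notch list 0 of 7. In this order the upper limits were 13.8, 14.9, 21.5 and 35.4%, all above 9.57%. The lists do not hold every gene of their class: the members Nrarp, Sf3a3, Raly, Nlk, Tle2, Hes3 and Lhx6 were not on those lists.

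The mesoderm and heart genes were Mesp2, Mixl1, Csrp3 and Nppb. Mixl1, a homeobox gene of the primitive streak, had ZHX1 peaks centred 0.68 kb upstream and 0.29 kb downstream of its start, the second in coding sequence. A further ZHX1 peak and its hnRNPA1 peak were 24.4 and 16.7 kb downstream, in introns of Lin9, with 7453 bp as the shortest gap. Csrp3, which encodes the muscle LIM protein, had a ZHX1 peak (chr7:48850688-48851035) 2.81 kb upstream and an hnRNPA1 peak (chr7:48847045-48847267) in an intron 0.9 kb downstream. Nppb, the gene for B-type natriuretic peptide, had a ZHX1 peak 14.5 kb and an hnRNPA1 peak 6.11 kb upstream, 8142 bp apart. The nearest Zhx1-KO peak to Nppb on its downstream side was named for the neighbouring natriuretic peptide gene Nppa and lay 24.2 kb from its start. Mesp2 was the 1 member of 16 cardiac progenitor regulators (6.25%, 1.11 to 28.3%). Csrp3 and Nppb were 2 of 12 contractile and calcium-handling genes (16.7%, 4.7 to 44.8%). Both intervals included 9.57%, the share over all names. Mixl1 and Mesp2 were 2 of 5 mesoderm genes (40%, 11.8 to 76.9%), an interval above 9.57% that rests on 5 names. Mesp2 was counted in the cardiac progenitor and mesoderm lists, although hnRNPA1 was also called at its shared stretch in Zhx1-KO.

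The ligands and receptors were Gdf6, Fgf15, Tie1 and Plxnb2. Gdf6, a ligand of the BMP family, had its ZHX1 peak 8.21 kb upstream and its hnRNPA1 peak 28.7 kb downstream of the start, beyond the end of the gene. Fgf15, a fibroblast growth factor gene, had both peaks upstream, at 10.9 and 4.11 kb. Tie1, an endothelial receptor tyrosine kinase gene, had 3 hnRNPA1 peaks, 4.96 kb upstream and 8.12 and 13.6 kb downstream, around a ZHX1 peak in an intron at 6.58 kb. Plxnb2, a semaphorin receptor gene, had its hnRNPA1 peak 0.42 kb and its ZHX1 peak 9.92 kb downstream, both in introns.

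The pluripotency genes were Dppa4 and Prdm14, 2 of 6 (33.3%, 9.68 to 70%), beside 9.57% of all names. The closest pair of Dppa4 was 53.1 and 52.3 kb upstream with a gap of 347 bp, in sequence with 13568 and 7006 copies, and a further ZHX1 peak was 12.4 kb downstream. Prdm14, which encodes a regulator of the germ line and of pluripotency, had 3 peaks of each protein, the nearest 17881 bp apart.

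The chromatin genes and the others completed the 14. Dnmt1, the maintenance DNA methyltransferase gene, had a ZHX1 peak 12.2 kb and an hnRNPA1 peak 21.9 kb downstream of the start, both in introns, and a Zhx1-KO peak named Mir7081 at 31.9 kb inside the gene. Kdm4a, a histone demethylase gene, had a ZHX1 peak in an intron at 3.37 kb, an hnRNPA1 peak 5.68 kb upstream and a Zhx1-KO peak named St3gal3 at 23.3 kb inside the gene. Nfyb, a subunit of the CCAAT-binding factor NF-Y, had a ZHX1 peak 2.96 kb upstream, with hnRNPA1 peaks 3.77 kb upstream and 4 kb downstream, and a shortest gap of 552 bp. Synpo2, an actin-binding protein gene of smooth muscle, had a ZHX1 peak at 17.1 kb and hnRNPA1 peaks at 73.8 and 74.7 kb.

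**Figure D4:**
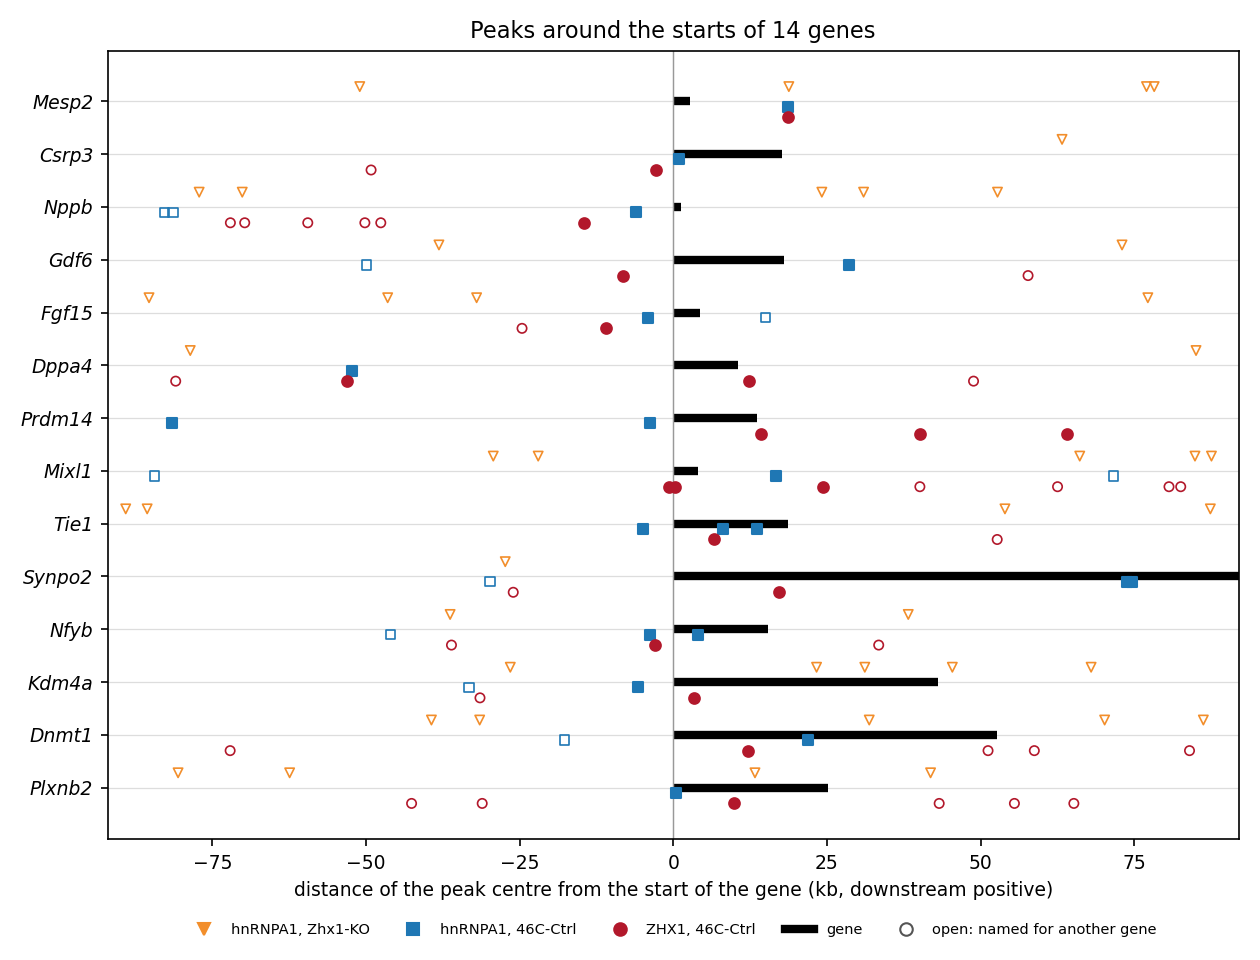
Peak centres around the starts of the 14 list genes (distance in kb, downstream positive; gene as a black bar). Filled marks are hnRNPA1 peaks of 46C-Ctrl cells (blue squares) and ZHX1 peaks (red circles) named for the gene, open marks are peaks named for another gene, and every hnRNPA1 peak of Zhx1-KO cells (orange triangles) is open; in Mesp2 one of them lies on the control pair, and in Kdm4a, Dnmt1 and Plxnb2 at least 1 lies within the gene.

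Of the families looked at with 5 or more names, keratins and olfactory receptors had the largest shares of members. Olfactory receptors, the odorant receptors of the nose, had 16 members of 44 names (36.4%, 23.8 to 51.1%) and keratins, the filament proteins of epithelia, 5 of 9 (55.6%, 26.7 to 81.1%), beside 9.57% of all names. Both had short territories, with 35 of the 44 and 8 of the 9 in the shortest quartile, where 27.9% of all names were members. Olfr969 had overlapping peaks (64 bp), Olfr584 and Olfr458 had gaps of 174 and 186 bp, and Olfr1349 had both peaks at its promoter with a gap of 494 bp, while Olfr292 had the largest gap of the olfactory receptors at 23864 bp. The keratin gaps were 268 bp at Krt84, 401 bp at Krt75, 1803 bp at Krt10, 2718 bp at Krt7 and 2842 bp at Krt6a.

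The intervals of the other families given here included the background or lay under it. Zinc finger genes picked by symbol, such as Zfp and Zbtb, had 9 members of 88 (10.2%). Zinc finger genes with other symbols, such as the members Patz1 and Unk, were not counted there. Potassium and calcium channel genes had 5 of 49 (10.2%) and solute carriers 8 of 92 (8.7%). Vomeronasal receptors, which sense pheromones, had 2 of 66 (3.03%, 0.835 to 10.4%) and cytochrome P450 genes 0 of 22, with an upper limit of 14.9%. RIKEN clones had 32 of 561 (5.7%, 4.07 to 7.94%) and Gm gene models 23 of 417 (5.52%, 3.7 to 8.14%), with median territories of 194 and 172 kb. Among the channel genes the gap was 3 bp at Kcna7, 924 bp at Cacna1i, 4337 bp at Cacnb1 and 8475 bp at Kcnmb1. The 2 histone members of 7 names (28.6%, 8.22 to 64.1%), Hist1h2bh and H2al1o, lay in multi-copy sequence, and their read assignment is uncertain.

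**Figure D5:**
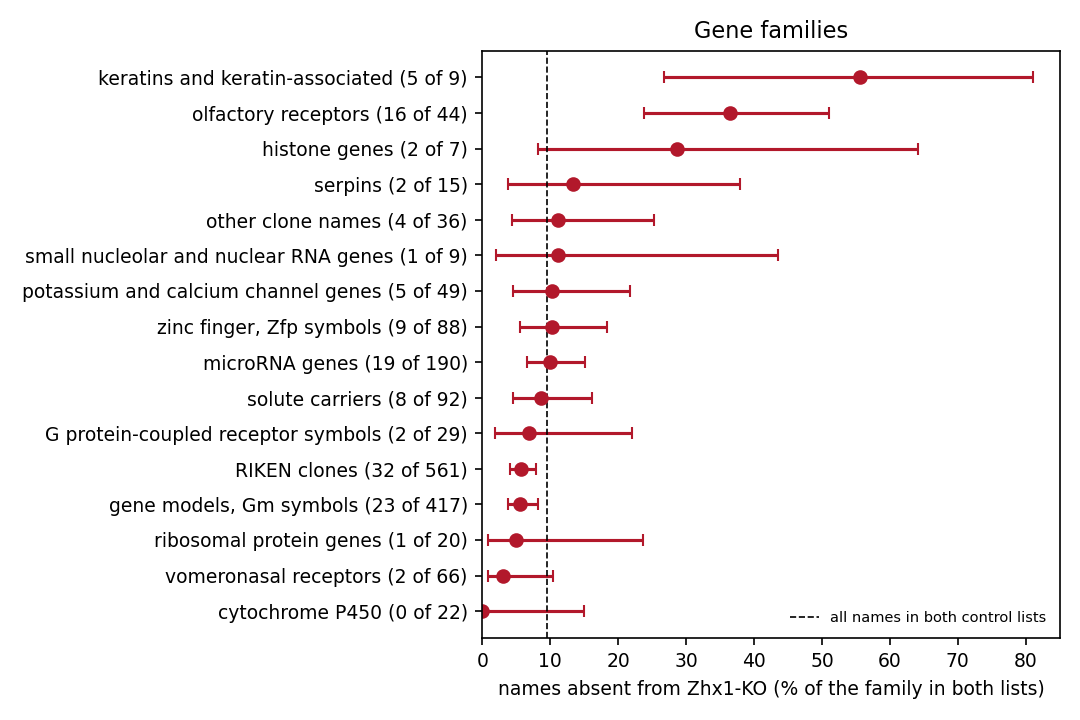
Share of the names of each family that were absent from Zhx1-KO (% of the names the family had in both control lists, points with Wilson 95% intervals; families with 5 or more names). The dashed line is 9.57%, the share over all names; the intervals of keratins and olfactory receptors lie above it and those of RIKEN clones and Gm gene models below it.

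MicroRNA genes had 19 members of 190 names (10%, 6.5 to 15.1%) and a median gap of 6125 bp. RefSeq held mature sequences for 17 of them, 27 in all, and no seed (bases 2 to 8) was shared by any of the 27. The sequences of 4 are given with the seed in capitals, those of the embryonic stem cell cluster member Mir295, whose peaks lay in Nlrp12 1141 bp apart, of Mir204 in the introns of Trpm3, of Mir423, which lay under a ZHX1 peak, and of Mir6968, with both peaks within 2 kb of its start.
mmu-miR-295-5p: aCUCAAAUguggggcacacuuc
mmu-miR-295-3p: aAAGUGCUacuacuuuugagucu
mmu-miR-204-5p: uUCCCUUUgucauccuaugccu
mmu-miR-423-5p: uGAGGGGCagagagcgagacuuu
mmu-miR-6968-5p: aGGGGGCGagggggcccugugg

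Mir423 had 2 ZHX1 peaks and an hnRNPA1 peak 19778 bp from the nearest of them. At Mir185 it was the hnRNPA1 peak that lay on the gene, and the ZHX1 peak was 13555 bp from it. The pair of Mir6968 was 734 bp apart and that of Mir324 1131 bp apart, while Mir6399 had overlapping peaks that shared 205 bp. Mir204 had a gap of 10654 bp and its hnRNPA1 peak was in sequence with 1006 copies.

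Some transcription factor genes outside the lists, chosen after their values were seen, had pairs at varied distances. Myod1, the skeletal muscle regulator, had a ZHX1 peak at its start and an hnRNPA1 peak 9192 bp away. Msx1 had a gap of 9038 bp, Dlx4 one of 1141 bp, Lhx6 one of 735 bp and Atf4 one of 1149 bp. Both peaks named Atf4 were centred in untranslated exon sequence of another gene, Mief1. Tert, the telomerase gene, had both peaks in introns 1499 bp apart, and Col11a2, a collagen gene, had them 252 bp apart.

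Mef2c, Src and Epas1, at whose promoters the study tested binding, were not members, and neither were Zhx1 and Hnrnpa1. From its ChIP-seq signal, the study reported weaker hnRNPA1 binding without Zhx1 for each of Mef2c, Src and Epas1. By ChIP at single promoters, it reported weaker binding for Mef2c and Src, and not for Epas1. The peak counts given next hold no signal and are not limited to promoters, so they test neither report. In Zhx1-KO hnRNPA1, 46C-Ctrl hnRNPA1 and ZHX1 lists in this order, Mef2c, a cardiac transcription factor gene, had 5, 2 and 3 peaks, Src, a tyrosine kinase gene, 3, 3 and 3, and Epas1, a hypoxia-inducible factor gene, 6, 4 and 4. Zhx1 had 1, 0 and 1, and Hnrnpa1 was named on no peak of any list.

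Members were spread over the genome. Chromosome 2 had the highest share, 60 of 404 names (14.9%, 11.7 to 18.6%), and chromosome 3 the lowest of the autosomes, 17 of 280 (6.07%, 3.82 to 9.51%). There were 21 pairs of neighbouring members within 100 kb of each other, among them Scrn1 with Fkbp14, Klk1b24 with Klk1b4 (kallikrein proteases) and Krt84 with Krt75, at 14.6, 19.3 and 47.9 kb. By RefSeq type 456 members were protein-coding (86.2%, 83 to 88.9%, against 79.5% of other names) and 42 were long non-coding RNAs (7.94% against 14.7%). The protein-coding share was 87.5% (83.8 to 90.4%) against 83.3% (80.8 to 85.5%) in the shortest quartile of territories and 81.3% (72.9 to 87.6%) against 84.1% (82 to 86%) in the next.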

How the data were processed

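ChIP-seq libraries were made from CP cells: hnRNPA1 in Zhx1-KO, hnRNPA1 in 46C-Ctrl and ZHX1 in 46C-Ctrl, with 1 library per list, and 2 inputs not analysed here. Adapters were removed by the authors (cutadapt 1.18), who kept reads of at least 50 bases, aligned these to GRCm38 (Bowtie2 2.3.5.1) and discarded duplicates and reads without a unique position. BWA 0.7.12-r1039, whose role is not stated, and deepTools 3.3.0, a display tool, also stand in the submitters' processing notes. For the peak caller, its threshold and the use of the inputs, details were not given in the sources used here. The deposited values are peak positions and gene names, with no count, score, signal or p-value, so the depth is unknown and peaks cannot be ranked by strength.

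Names were matched exactly. Positions are 1-based. Starts, gene bodies and types came from curated RefSeq transcripts of GRCm38.p6 (520 names matched by symbol, 8 by synonym, 1 not), as did promoter windows and mature miRNAs. Copy number was the median count of a peak's 32-base words in the primary assembly, and 2 or more was called multi-copy. The gap was the smallest edge-to-edge distance between a name's ZHX1 and hnRNPA1 peaks. Overlap meant at least 1 bp, and a promoter 2 kb to either side of a start. Shares carry Wilson 95% intervals and medians order-statistic 95% intervals. With 1 library per list no test was made.

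Named genes were overlapping pairs (the 20 longest and those below 2 copies), the 10 shortest gaps, up to 4 members per gene list, the 5 with most peaks or the widest peaks of each protein, 20 with both proteins at the promoter, and genes named in the study; others are said to be chosen after their values were seen, or stand as family members or examples. The members, gene lists and families were chosen with earlier results of these data known. The steps ran in Python 3.11.15 with pandas 2.3.3 and NumPy 2.4.6 for tables, SciPy 1.17.1 for intervals, Numba 0.67.0 for word counts and matplotlib 3.10.9 for figures, and were tested on simulated peaks.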

Additional observations from a re-analysis of the deposited data

How the results depend on the processing

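The 529 members depended most on the length of the lists. With the Zhx1-KO list reduced to its widest peaks, as many as the control hnRNPA1 list has, there were 2080 members. With both control lists halved to their widest peaks there were 158 of 2663 names (5.93%), against 9.57% with all peaks. Overlapping pairs were 39 of 529 members, 20 of the 268 that kept a peak in both lists when peaks of the smallest width were left out, 27 of the 437 that kept one below 2 copies in both, and 26 when 50% of the narrower peak had to be shared. The median gap of 7535 bp became 9196 bp with 1 peak per list and, in an alternative chosen after seeing the data, 6160 bp in the shortest quartile of naming territories. Multi-copy peaks were 13.5% of all member peaks, and 10.01% at 5 or more copies. Members with a promoter peak were 155 within 2 kb and 103 within 1 kb. Zhx1-KO peaks under another name lay within 10 kb of 74 members, within 1 kb of 4 and within 100 kb of 512. The cause of these changes was not tested beyond how each alternative was built. Of 20 alternatives 11 gave counts within 1.5 times the count reported or medians within its interval. Among them were 460 genes when a gene was taken as its body with 2 kb upstream. These were 18.3% of the 2514 genes with peaks of both proteins there, against 9.57% by name. Only 129 of the 460 were also members by name. Of the 529 members by name, 189 had peaks of both proteins in the body or 2 kb upstream. Of the 20, 5 were chosen after seeing the data; leaving out members with a Zhx1-KO peak inside the gene left 442. No paired analysis was possible because each group had 1 library. The lists hold no depth or strength per peak, and the Zhx1-KO list is the longest of the 3, so a loss of peaks and a change in the lists' thresholds or depths cannot be told apart.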
